A study of Danio rerio with 6 samples.

Results

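Single deletions of 1 to 2 bp at positions 520 to 570 of a GFP transgene targeted by Cas9 were described in 6 adult zebrafish. A scar is the set of insertions and deletions that a sequencing read carries relative to the GFP reference of 720 bp. The short deletions were selected on the form of the scar and on read counts: exactly 1 deletion, no insertion, a length of 1 or 2 bp, at least 1 deleted base between positions 520 and 570, and 10 or more reads in at least 1 library. This gave 63 scars, out of 4273 scars of any form that reached 10 reads in a library, of which 36 lacked 1 bp and 27 lacked 2 bp. A library is a barcode of a fish with at least 1000 reads. Position and length are therefore given as a description, and so is the fact that every short deletion reached 10 reads somewhere.

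Cas9 RNA had been injected into fish R1, R2 and R3 and Cas9 protein into fish P1, P2 and P3, in each case with a guide RNA against GFP, into 1-cell embryos transgenic for several copies of H2A-GFP. Values listed across fish R1 to R3 or P1 to P3 follow that order. All fish were sampled at about 1 year of age, by amplifying GFP from genomic DNA of dissected parts of many organs. The Cas9 RNA fish had 31, 13 and 14 libraries and the Cas9 protein fish 26, 23 and 23, with 2013 to 1401596 scarred reads per library after Cas9 RNA and 1842 to 2187091 after Cas9 protein. The organ behind each library was not used here, several libraries can come from the same body part, and each group consists of 3 animals. The fish was therefore the unit of every test. A p-value is the share of regroupings of the fish, or of sign flips of their differences, that give a difference at least as large. With 3 fish against 3, no exact permutation test can give a two-sided p under 0.10. PCR copies of a molecule are read more than once, and intervals and floors therefore cover counting error only.

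As background, Cas9 cuts both strands of DNA at the site that the guide RNA pairs with, and the cell rejoins the ends. When end joining is not exact, bases are lost or added at the junction, and the altered copy can no longer be cut well, so that the change is passed to all descendants of the cell. Loss of a single base or of a pair of bases is a common outcome of end joining and shifts the reading frame of a coding sequence. Because such small outcomes recur in unrelated cells, lineage tracing relies on rarer scars and usually removes those found in several animals. Cas9 protein acts as soon as it is injected, while Cas9 RNA must first be translated and keeps cutting for longer.

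Each scar is given as match, insertion and deletion lengths, without letters. The GFP reference sequence was not used here, so that the deleted bases are not shown and the cut site is not located. Position 1 is the first base of the reference. In a run of identical bases an aligner writes a deletion at a single one of several equivalent places, and a position therefore stands for the place chosen in the deposited table.

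The window holds 51 places for a deletion of 1 bp and 52 for one of 2 bp. Equivalent places in runs of identical bases are counted separately here, so that fewer deletions may be distinguishable. Deletions with 10 or more reads were found at 70.6% of the places for 1 bp and 51.9% of those for 2 bp. For single deletions of 3 to 6 bp it was 33% of 218 places. At 11 of the 51 positions no library of any fish held a single read of a 1-bp deletion. Positions 540 and 544 were among them, while deletions of 2 bp that begin there had 72964 and 397293 reads. Whether the aligner writes 1-bp deletions of such positions at an equivalent place was not tested. In all, 75 short deletions had any read, and 12 of them stayed under 10 reads in every library. The scars nearest to that limit were the deletion of positions 550 to 551 and that of position 552, each with 10 reads in its best library, and, below it, the deletion of positions 551 to 552 with 9 reads. Most short deletions were scarce. Only 16 of the 63 reached 1% of the scarred reads in any library, 9 of 1 bp and 7 of 2 bp, and all 16 lay between positions 527 and 549. At the outer ends of the window, the deletion of positions 520 to 521 was kept in 4 fish, with at most 148 reads over all libraries of a fish. That of positions 569 to 570 was kept in fish R2 alone, with 25 reads. Fish P1 had 36 reads of it, but fewer than 10 in each library.

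The short deletions together held a modest part of the scarred reads, and fish and libraries covered a wide range. In means over libraries, they made up 6.97% ± 3.16 (SD over libraries) of the scarred reads of fish R1, 6.08% ± 2.67 of those of fish R2 and 2.52% ± 2.80 of those of fish R3. The means were 5.82% ± 3.28 for fish P1, 2.12% ± 3.30 for fish P2 and 9.28% ± 7.89 for fish P3. Single libraries ranged from 1.64% through a median of 6.32% to 14.2% in fish R1, from 2.27% through 5.72% to 11.9% in fish R2 and from 0.183% through 1.57% to 9.27% in fish R3. In Cas9 protein fish they ranged from 0.313% through 5.62% to 11.4% in fish P1, from 0.0590% through 0.692% to 13% in fish P2 and from 1.65% through 8.22% to 32.4% in fish P3. The widest 95% Wilson interval of any of these library values spanned 2.04 percentage points, in fish R2. Fish P2 was low in most libraries, with 13 of 23 under 1%, while 7 of the 23 libraries of fish P3 lay at 10% or more.

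No difference between the injections was found in these totals. Short deletions held 5.19% ± 2.35 of the scarred reads after Cas9 RNA and 5.74% ± 3.58 after Cas9 protein (SD, n = 3 each), a difference of -0.55 percentage points (exact permutation test, two-sided, p = 1.0). As a percent of all reads they held 2.38% ± 2.13 after Cas9 RNA and 4.20% ± 3.03 after Cas9 protein, a difference of -1.82 points (SD, n = 3 each, exact permutation test, two-sided, p = 0.50). On the scale of scarred reads the direction changed without fish R3 (0.782 points) and without fish P3 (1.22 points). The number of short deletions kept was 41, 44 and 30 across fish R1 to R3, against 52, 28 and 46 across fish P1 to P3. Its means were 38.3 ± 7.37 in the 3 Cas9 RNA fish, against 42 ± 12.5 in Cas9 protein fish (SD, n = 3 each, exact permutation test, two-sided, p = 0.70), and the order turned round when each library was drawn down to 10000 reads. In all, 10 comparisons were tested, 6 between the injections and 4 within fish, and after Benjamini-Hochberg adjustment over the 10 the lowest p was 0.156, for both comparisons with deletions of 3 to 6 bp, and the other 8 lay between 0.833 and 1.0.

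The short deletion that recurred most was the loss of positions 544 to 545, at the middle of the window. It was the leading short deletion of all 3 Cas9 RNA fish, with a mean of 2.85% ± 2.14 (SD over libraries) of the scarred reads in fish R1, 3.29% ± 1.46 in fish R2 and 1.05% ± 1.79 in fish R3. After Cas9 protein it averaged 0.328% ± 0.300 for fish P1, 0.695% ± 1.93 for fish P2 and 0.397% ± 0.549 for fish P3. It reached 10 reads in all libraries of fish R1, R2, R3 and P2, in 25 of 26 of fish P1 and in 21 of 23 of fish P3, which is the widest distribution of any short deletion. The means of the fish were thus 2.40% ± 1.19 after Cas9 RNA and 0.473% ± 0.195 after Cas9 protein (SD, n = 3 each), a difference of 1.92 percentage points, with each of the 3 Cas9 RNA fish above each of the 3 Cas9 protein fish. This deletion was singled out after its values had been seen, and the difference is not tested. On other scales the groups overlapped. Those values also pool the libraries of a fish, so that scale and pooling cannot be told apart there. As a percent of all reads, with libraries pooled, the values were 2.08%, 0.418% and 0.330% across fish R1 to R3, against 0.159%, 0.464% and 0.25% across fish P1 to P3, so that fish P2 lay above fish R2 and R3. Per 10000 unscarred reads there were 797, 48.6 and 74.1 across fish R1 to R3, against 46.9, 173 and 79 across fish P1 to P3, and the groups overlapped again. Without its highest library fish R3 averaged 0.589% of the scarred reads, which is below the 0.695% of fish P2 over all its libraries. With the highest library of every fish left out, the means were 2.59%, 3.09% and 0.589% across fish R1 to R3. Across fish P1 to P3 they were then 0.304%, 0.336% and 0.345%, and the groups did not overlap. Scars that join this deletion to other events were not counted in these values. With them, the means were 2.92%, 3.58% and 1.07% of the scarred reads across fish R1 to R3, against 0.337%, 0.719% and 6.22% across fish P1 to P3, and fish P3 was the highest of all.

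Within a fish the loss of positions 544 to 545 was uneven. In fish R1 its library values had a lowest share of 0.639%, a median of 2.61% and a highest share of 10.6% (95% Wilson interval 10.5 to 10.7%), and in fish R2 they ran from 0.860% through 3.53% to 5.71%. In fish R3 they ran from 0.0229% through 0.453% to 7.03%. Fish P2 had an even wider spread, with a median of 0.0385% and a highest library of 8.60%. It held the most reads of all short deletions in 22 of 31 libraries of fish R1, 12 of 13 of fish R2 and 8 of 14 of fish R3, against 0 of 26 of fish P1, 7 of 23 of fish P2 and 0 of 23 of fish P3.

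Across all short deletions, mean shares of the injections did not overlap for 5 that were higher in each Cas9 RNA fish and for 5 that were higher in each Cas9 protein fish, or 7.94% of the 63 in each direction. Among all 4273 scars the same was true of 3.49% with Cas9 RNA above and of 1.57% with Cas9 protein above. A scar without a read in at least 1 fish of each injection cannot separate them, while 61 to 63 of the short deletions had a read in any given fish, so that these shares are not on the same footing. Besides the loss of positions 544 to 545, the 4 others with higher Cas9 RNA fish were the 1-bp deletions of positions 523, 547, 552 and 556, none above 0.0544% of the scarred reads in any fish. Per 10000 unscarred reads, with libraries pooled, that of position 547 overlapped, with 0.257 in fish R2 against 0.427 in fish P3. So did that of position 556, with 0.156 in fish R1 against 0.174 in fish P2. Those of positions 523 and 552 did not overlap. For position 523 the gap was narrow, with 0.426 in fish R3 against 0.423 in fish P1. For position 552 there were only 2 reads in fish P2. Among the 5 with higher Cas9 protein fish, the deletion of position 527 had a mean of 1.89% in fish P1 and the other 4 stayed at or under 0.0598% in every fish. Of these 5, that of positions 526 to 527 overlapped per 10000 unscarred reads, with 0.143 in fish R1 against 0.134 in fish P1.

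Some close neighbours of the loss of positions 544 to 545, among them those of positions 543 to 544 and of position 545, were also kept in all 6 fish. The deletion of positions 543 to 544 averaged 0.470% ± 0.560 (SD over libraries) of the scarred reads in fish R1, 0.862% ± 1.85 in fish R2 and 0.0211% ± 0.0535 in fish R3, against 0.0490% ± 0.0860 for fish P1, 1.13% ± 2.75 for fish P2 and 0.126% ± 0.371 for fish P3. It led the short deletions of fish P2, where a single library held 12.8% (95% Wilson interval 12.7 to 12.9%) while the median library held 0.0629%. The 1-bp deletion of position 545 averaged between 0.0366% in fish P1 and 0.272% in fish R2, and reached 4.96% in its highest library, in fish P3. The range of positions 542 to 545 was set from these data, as the leading short deletion of the Cas9 RNA fish and the 2 bases before it. High values in those fish are therefore partly built in, and the injections cannot be compared on it. Deletions that touch this range, of which there are 7, held 57.5%, 75% and 61.1% of the reads of short deletions across fish R1 to R3, as means over libraries. In fish P1, P2 and P3 they held 10.1%, 79.8% and 13.4%. Fish P1 and P3 were the low ones, with other short deletions ahead.

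The most abundant short deletion of any fish was the loss of position 549 in fish P3. It averaged 7.34% ± 8.00 (SD over libraries) of the scarred reads there and was found in all 23 libraries, from a lowest share of 0.511% through a median of 5.54% to a highest of 31.5% (95% Wilson interval 31.1 to 31.9%). It held the most reads of the short deletions in 20 of the 23 libraries. The same deletion was kept in the other 5 fish, but far below, at 0.00472%, 0.0455% and 0.00753% of the scarred reads across fish R1 to R3 and at 0.00539% and 0.00380% for fish P1 and P2. The highest library outside fish P3 had 0.0740%, in fish R2, and did not overlap with the lowest library of fish P3.

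In fish P1 a pair of short deletions was abundant. The deletion of positions 539 to 540 averaged 2.26% ± 1.53 (SD over libraries) of the scarred reads and ranged from 0.108% through a median of 1.99% to 5.80%. The deletion of position 527 averaged 1.89% ± 1.26 and ranged from 0.0975% through 1.76% to 5.40%. Both were found in all 26 libraries, and each held the most reads of the short deletions in 11 of them. Elsewhere the deletion of positions 539 to 540 was kept in fish R1, R2 and P2, with means of 0.0217%, 0.0936% and 0.00770%, and that of position 527 in fish P2 and P3, with means of 0.00410% and 0.00150%. Scars that join these deletions to other events were not counted in these values. A further deletion of fish P1, of positions 540 to 541, averaged 0.755% ± 1.56 but had a median of only 0.0426%, and 5 of 26 libraries held 1% or more of it. It was kept in all 6 fish, and outside fish P1 its highest library held 0.912%, in fish R2.

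In fish R1 the second most abundant short deletion was the 2-bp deletion that begins at position 534. Its mean was 1.78% ± 1.38 (SD over libraries) of the scarred reads, and its libraries ran from 0.380% through a median of 1.41% to 6.33%, with 10 or more reads in all 31. In the other fish that kept it, R3, P1 and P3, the means were 0.00323%, 0.00153% and 0.00126%. The deletion of position 532 was likewise in all 31 libraries of fish R1, with a mean of 0.525% ± 0.383. It was kept in 5 fish, and in fish P3 its mean was 0.0410% and its highest library held 0.530%. In fish R3 the deletion of position 541 had a mean of 0.619% ± 2.10 that came mostly from a single library with 7.90% (95% Wilson interval 7.79 to 8.01%), while the median library held 0.0444%. Its highest library in fish P1 held 1.71%. The deletion of position 536 was second in fish P3, with a mean of 0.546% ± 1.22, a median of 0.180% and a highest library of 5.65%. It was kept in 5 fish, and its highest library in fish P1 held 2.36%. The 2-bp deletion of positions 541 to 542 was in all 31 libraries of fish R1 too, with a mean of 0.626% ± 0.997, a median of 0.0526% and a highest library of 3.16%. That of positions 542 to 543 was the most frequent short deletion in 3 libraries of fish R3, where its mean was 0.277% ± 0.431 and its highest library held 1.12%, and it reached 1.77% in a library of fish P3. The remaining 3 that passed 1% somewhere were 1-bp deletions, of positions 537 and 543 in fish R2, with highest libraries of 1.81% and 1.64%, and of position 538 in fish R1, with 1.45%. Reads were concentrated on few of them, and the 2 leading ones of each fish summed to between 66.2% (fish R3) and 86.3% (fish P2) of the mean shares of all short deletions.

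Some short deletions kept a nearly steady ratio to unscarred GFP, the reads with no event. The one with most reads was the 1-bp deletion of position 560, on the far side of the window from most abundant scars. Its reads numbered 5.51, 7.70 and 7.21 per 10000 unscarred reads across fish R1 to R3, and 6.75, 6.54 and 6.55 across fish P1 to P3, with all libraries of a fish pooled. The highest fish was 1.40 times the lowest, and for the rarer deletion of position 559 it was 1.35 times. As a percent of scarred reads the deletion of position 560 averaged 0.534% in fish R2. It averaged 0.0352% and 0.0631% in fish R1 and R3 and 0.0399%, 0.0240% and 0.0311% across fish P1 to P3. Mean unscarred GFP was 86.3% in fish R2 and between 25.1% and 45.1% in the other fish. The paper states that it kept only fish in which unscarred GFP was the minor part on average over organs, and fish R2 was kept. The value of fish R2 over the libraries used here lies outside that criterion, and the reason was not tested. Between the libraries of a fish, the coefficient of variation of the deletion of position 560 was 7.29 to 32% per unscarred read and 35.9 to 99.2% per scarred read, and it was lower per unscarred read in each of the 6 fish.

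All 11 short deletions that begin at position 552 or later had a narrow range of this ratio, with a highest fish between 1.35 and 4.39 times the lowest per unscarred read and a median of 2.39 times. Among the 52 that begin at position 551 or before, 3 had a fish without a read and gave no ratio. For the others the same ratio had a median of 63.1 and was at least 6.31. The boundary at position 551 was placed after these ratios had been seen. The deletion of position 549 combined both behaviours. In fish R1, R2, R3, P1 and P2 it had between 0.735 and 1.01 reads per 10000 unscarred reads, and in fish P3 it had 1023. The 11 deletions held 0.0405%, 0.624% and 0.0745% of the scarred reads across fish R1 to R3 and 0.0471%, 0.0282% and 0.0371% across fish P1 to P3. In fish R2 they accounted for 12.1% of the reads of short deletions, and all 11 were kept there, against 2 to 7 in the other fish.

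Single deletions of 1 bp were also found outside the window, on both sides of it. They were listed at 13 to 27 positions per fish, between positions 469 and 610. In every fish the most frequent was at position 576, with 0.0650%, 0.148% and 0.0652% of all reads across fish R1 to R3 and 0.0484%, 0.0386% and 0.0469% across fish P1 to P3. It had 14.3 to 24.9 reads per 10000 unscarred reads, more than the deletion of position 560. The 1-bp deletions outside the window summed to between 0.0747% (fish P2) and 0.296% (fish R2) of all reads, and those inside to between 0.186% (fish R2) and 3.93% (fish P3). Fish R2 was the only fish with more reads outside than inside. What part reading errors of PCR or sequencing have in any of these deletions was not tested.

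The 1-bp and 2-bp deletions shared the reads differently between fish. Deletions of 1 bp held 17.4%, 29% and 35% of the reads of short deletions across fish R1 to R3, and 40.2%, 24.9% and 87.9% across fish P1 to P3, as means over libraries. As percents of scarred reads, 1-bp deletions made up 1.12%, 1.61% and 0.965% across fish R1 to R3 and 2.26%, 0.231% and 8.50% across fish P1 to P3. Deletions of 2 bp made up 5.85%, 4.47% and 1.56% across fish R1 to R3 and 3.56%, 1.89% and 0.784% across fish P1 to P3. The 2-bp deletions were thus ahead in 5 of 6 fish, and fish P3, with its deletion of position 549, was the exception. Over the 6 fish the difference of 1-bp minus 2-bp deletions was -0.57 percentage points (exact sign-flip permutation test, two-sided, p = 0.78). The share of 1-bp deletions among the reads of short deletions was 27.1% ± 8.94 in the 3 Cas9 RNA fish, against 51% ± 32.9 in Cas9 protein fish (SD, n = 3 each, exact permutation test, two-sided, p = 0.30). Without fish P3 the difference of -23.9 points shrank to -5.42.

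The leading short deletion of a library held on average 49.1%, 59.1% and 55.7% of its short-deletion reads across fish R1 to R3 and 44.7%, 61.4% and 75.2% across fish P1 to P3. The group means were 54.6% ± 5.09 after Cas9 RNA and 60.4% ± 15.3 after Cas9 protein (SD, n = 3 each, exact permutation test, two-sided, p = 0.60), and without fish P3 the difference of -5.77 points turned to 1.62. The total share of short deletions varied most between libraries in fish P2, with a coefficient of variation of 156%, and in fish R3, with 111%. It was 45.3% and 43.9% in fish R1 and R2 and 56.4% and 85.1% in fish P1 and P3. The coefficient averaged 66.8% ± 38.4 in the 3 Cas9 RNA fish, against 99.1% ± 51.2 in Cas9 protein fish (SD, n = 3 each, exact permutation test, two-sided, p = 0.50), and the difference of -32.3 points ranged from -54.5 to -3.94 with a fish left out, the last without fish P2.

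A short deletion that was kept in a fish was usually absent from most of its libraries at the limit of 10 reads. It was found in 38.6%, 30.1% and 33.6% of the libraries across fish R1 to R3 and in 37.4%, 25% and 30.2% of those across fish P1 to P3, averaged over the deletions kept. The means were 34.1% ± 4.30 in the 3 Cas9 RNA fish, against 30.8% ± 6.20 in Cas9 protein fish (SD, n = 3 each, exact permutation test, two-sided, p = 0.50). Between 7 (fish R1) and 18 (fish R2) of the deletions kept in a fish were found in a single library, and between 1 (fish P2) and 5 (fish R1) in all of its libraries. At 10000 reads per library the same mean was 28.5%, 22.1% and 20.6% of the libraries across fish R1 to R3 and 27.7%, 23.9% and 23.1% of those across fish P1 to P3.

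Of the 63 short deletions, 15 were kept in all 6 fish, 11 of them of 1 bp and 4 of 2 bp, and 8 were kept in a single fish. These are 23.8% and 12.7%, beside 19 (26.4%) and 13 (18.1%) of the 72 single deletions of 3 to 6 bp. The 15 held 53.4%, 94.9% and 86.7% of the short-deletion reads across fish R1 to R3 and 20.8%, 88.6% and 86.5% across fish P1 to P3, as means over libraries. The deletions of position 527 and of positions 539 to 540, abundant in fish P1, and the 2-bp deletion from position 534, abundant in fish R1, were not among the 15. The 8 deletions of a single fish came from fish R2 and fish P1, 4 from each, and all were scarce. The most widespread of them were that of the base after position 554 in fish R2, in 2 of 13 libraries with a mean of 0.00912% of the scarred reads, and that of position 521 in fish P1, in 2 of 26 libraries with 0.000379%. No abundant short deletion was private to a fish by this limit, although a deletion such as that of position 549 was more than 100 times as frequent in its main fish as in any other.

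Single deletions of 3 to 6 bp, chosen by the same window and read limit, were the nearest class for comparison. Of these, 72 were kept, and they held far more reads. Short deletions made up 5.46% ± 2.73 of the scarred reads and deletions of 3 to 6 bp 26.1% ± 6.76 (SD, n = 6 fish), a difference of -20.6 percentage points that was negative in 6 of 6 fish (exact sign-flip permutation test, two-sided, p = 0.031, the smallest that 6 fish allow, and 0.156 after adjustment over 10 comparisons). The share of libraries that carried a kept deletion was 32.5% ± 5.10 for short deletions and 39.1% ± 4.53 for those of 3 to 6 bp (SD, n = 6 fish). This difference of -6.66 points was again negative in 6 of 6 fish (exact sign-flip permutation test, two-sided, p = 0.031, adjusted 0.156), although in fish R1 the values were 38.6% and 38.8%. With libraries of 100000 or more reads it was -6.15 points, and the exact permutation p was 0.0625. The level depended on the read limit: where a scar also had to hold 0.1% of the reads of a library, the shares were 6.29% ± 2.86 for short deletions and 12.6% ± 2.19 for those of 3 to 6 bp, and with scars of 100 or more reads they were 24.7% ± 1.89 and 35% ± 4.96, a difference of -10.3 points. The numbers kept per fish did not separate the classes in this way, with 44 short deletions and 37 of 3 to 6 bp in fish R2, 46 and 40 in fish P3, and fewer short ones in the other 4 fish. Of the kept scars of a fish, 2.80% ± 4.36 of the short deletions and 4.41% ± 3.14 of those of 3 to 6 bp were kept in no other fish (SD, n = 6 fish, exact sign-flip permutation test, two-sided, p = 0.44), and this difference turned round at 10000 reads per library. A scar kept in no other fish can still have reads there under the limit, as the 4 such short deletions of fish R2 did.

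The same deletions also occurred together with other events in scars that the rule left out. The deletion of positions 544 to 545 stood alone in 97.7%, 92.8% and 96.3% of its reads across fish R1 to R3 and in 97.2% and 97.8% in fish P1 and P2. In fish P3 it stood alone in 8.70%, with 19064 reads alone and 200063 reads in scars with other events. The most frequent of these joined it with a deletion of positions 524 to 528, a further 1-bp deletion and the loss of position 549, and had 91774 reads. The loss of position 549 in fish P3 had 246848 reads alone and 242869 with other events, of which the same scar was the most frequent.

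For the deletion of positions 543 to 544, fish R2 had 15777 reads alone and 195998 reads joined to other events, of which 185295 belonged to a scar that also lacked positions 537 to 540. In fish P2 97.2% of the reads of this deletion stood alone. The leading pair of fish P1 was nearly always alone in that fish, in 99.4% of the reads for positions 539 to 540 and 98.1% for position 527, and the 2-bp deletion from position 534 was alone in 92.1% in fish R1. In fish P2 the deletion of position 527 had only 184 reads alone and 92689 reads joined to other events, of which 86814 belonged to a single scar. In fish P3 it had 34 reads alone and 8630 joined. The deletion of position 536 was alone in 61.9% of its reads in fish P3, while it stood alone in 10.5%, 2.06% and 9.19% of them across fish R1 to R3 and in 32.6% and 0.727% for fish P1 and P2.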

How the data were processed

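GFP amplicons of 6 fish were analysed. Mapping to GFP was done by the authors with BWA (0.7.16a per the submitters' processing notes), and the deposited values are raw counts of reads, per scar and barcode, before their noise filter and before removal of scars shared between fish. Here, a barcode counted as a library from 1000 reads on (130 in all), scars were parsed from their alignment strings, and the short deletions were taken by the rule given above. Shares were computed per library and averaged without weights within a fish. The members, the compared class and the tests were chosen with earlier results of these data known. Injections were compared with exact permutation tests over fish and measures of the same fish with exact sign-flip permutation tests, both two-sided. Scars were named by a fixed rule: the 2 leading members of each fish, the 6 leading members kept in all fish, the most widespread member kept in a single fish, and the members at both ends of the window. Others (positions 523, 526 to 527, 532, 537, 538, 541 to 542, 542 to 543, 543, 547, 552, 556, 559, 560 and 576, and those next to the read limit) were named after their values had been seen, as was the comparison of scars kept in no other fish. The range of positions 542 to 545 was set from the leading short deletion of the Cas9 RNA fish. The alternatives were other windows, read limits, library limits, reads drawn down to 10000 per library, pooled reads, percents of all reads, a carriage limit of 0.1% and each fish left out. The parsing and tests were tested on simulated data. Python 3.11.15, NumPy 2.4.6, pandas 2.3.3 and SciPy 1.17.1 were used with random seed 1. The floor of detection, 3 reads, lay between 0.000137% and 0.163% of the scarred reads of a library.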

Additional observations from a re-analysis of the deposited data

Results flagged for a closer look

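Reads of short deletions were also present in the barcodes that were left out because they held fewer than 1000 reads, above the 3 reads that a count of 0 allows. Pooled over these barcodes, short deletions made up 6.02% of 83 scarred reads in fish R1, 5.50% of 109 in fish R2 and 3.20% of 781 in fish R3. For fish P1 they made up 3.97% of 630 scarred reads, for fish P2 2.92% of 445 and for fish P3 7.24% of 373. The 95% Wilson intervals were 2.60 to 13.3%, 2.55 to 11.5% and 2.18 to 4.68% across fish R1 to R3 and 2.70 to 5.79%, 1.72 to 4.93% and 5.02 to 10.3% across fish P1 to P3. The unweighted mean over libraries of the same fish lay within this interval in all fish but P1, where it was 5.82%. With the libraries pooled as well, the shares were 6.37%, 5.94% and 2.36% across fish R1 to R3. Across fish P1 to P3 they were 5.12%, 1.82% and 6.26%, and each fish lay within its interval. The leading short deletion of the fish had 17 of the 27 such reads in fish P3 and 4 of 25 in fish P1.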

How the results depend on the processing

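No comparison between the injections can pass 0.05 with 3 fish against 3, so that only directions can change, and what causes a change was not tested. Differences are Cas9 RNA minus Cas9 protein fish, in percentage points unless stated. The share of short deletions, -0.55, was -1.82 as a percent of all reads and turned to 0.196 with libraries of 100000 or more reads, 0.487 with pooled reads and 0.629 without the leading short deletion of each fish, an alternative added after seeing the data, and ranged from -2.36 to 1.22 with a fish left out. The number of short deletions kept, -3.67, turned to 0.333 in a window narrowed by 15 positions at each end and to 1.67 at 10000 reads per library, and ranged from -10.7 to 1.33 with a fish left out, turning without fish R3 (0.500) and without fish P1 (1.33). The share of libraries carrying a short deletion, 3.26, turned to -1.15 at 10000 reads per library. With a fish left out, the share of the leading short deletion, -5.77, ranged from -13.6 to 1.62, and 1-bp minus 2-bp deletions, -0.57, from -2.23 to 0.261, the last without fish R1. Fish with the same number were also taken as pairs, a replicate block that the labels do not call a pairing, which leaves these differences as they are (-0.55 for the share of short deletions, exact sign-flip permutation test, two-sided, p = 1.0, smallest possible 0.25). Against single deletions of 3 to 6 bp, the share of scarred reads ranged from -22.1 to -18.4 and the share of libraries from -7.96 to -5.47 with a fish left out, where the smallest possible p is 0.0625. The share of libraries was -6.15 with libraries of 100000 or more reads and -4.23 in a window narrowed by 15 positions at each end (p = 0.0625 in both, exact sign-flip permutation test, 6 fish), and the number of scars kept differed by -4.50 (p = 0.34, same test). The difference in the share of libraries was -10.3 with scars of 100 or more reads and -6.36 with a limit of 0.1% of the reads of a library, an alternative added after seeing the data. Scars kept in no other fish, -1.61, turned to 0.239 in a window narrowed by 15 positions at each end, 3.85 with 100 or more reads and 12.5 at 10000 reads per library, as alternatives added after seeing the data. Drawn down to 10000 reads per library, 17, 8 and 9 short deletions were kept across fish R1 to R3 and 12, 4 and 13 across fish P1 to P3. The limit of 10 reads then stood at 0.1% of a library, so that a lower number was fixed in advance. In fish P1, 1 library was too shallow to be drawn.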
